A study of Mus musculus with 4 samples.

Results

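The TNF superfamily, a family of cytokine ligands and the receptors that bind them, was compared between visceral and parietal mesothelium of the mouse. Its members were taken by name: genes whose symbol begins with Tnfsf or Tnfrsf and a number, together with Tnf, Lta, Ltb, Ltbr, Fas, Fasl, Cd40, Cd40lg, Cd27, Cd70 and Ngfr. Among the 19938 genes that rows of the array table name singly, 40 were members, of which 15 were ligands and 25 were receptors. The ligands Tnfsf12 and Tnfsf13 share 1 row with another symbol and were therefore not members. RNA came from untreated adult Wt1-cre;Rosa26ReYFP mice on a c57bl/6 background. Visceral mesothelium was taken from the omentum (2 arrays), and parietal mesothelium was teased off the skeletal muscle of the body wall (2 arrays). Both tissues carried the same alleles, in which Cre under control of Wt1 switches on a fluorescent reporter. The RNA was that of the isolated tissue, with no cell sort described. The paper judged nearly all of the input to be mesothelial cells by the fluorescent reporter. The labels call the 2 arrays of each tissue biological replicates. The animals behind each array are not given, so the spread between arrays may be partly technical.

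Ligands of this family are trimeric proteins, mostly held in the plasma membrane, and many can be shed as soluble cytokines. Their receptors fall into those with an intracellular death domain, which can recruit caspases, those without one, which recruit TRAF adaptors and activate NF-kB, and decoys, which bind ligand without signaling. In serosal tissues the family is known above all for inflammation, for the survival of B cells and for the lymphotoxin signals that build lymphoid tissue, including the milky spots of the omentum.

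Members of the family mostly had like signals in both tissues, as did most genes on the array. Of the 40 members, 2 receptors were called higher in visceral mesothelium, Tnfrsf19 and Tnfrsf1b, and no member was called higher in parietal mesothelium. A call required a Benjamini-Hochberg adjusted p under 0.05 from limma and a fold of at least 1.5. By this rule 9.6% of all genes were called, 5.22% as higher in visceral and 4.39% as higher in parietal mesothelium. The share of members called was 5%, or 2 of 40. Whether it differs from that of all genes was not tested. No ligand was called by limma, and without adjustment 1 of the 15, Tnfsf10, had a p under 0.05, at a fold under 1.5. For the parietal direction, limma without adjustment gave 1 member at a fold of at least 1.5, Tnfrsf11b, and the methods' t-test, which estimates the spread from each gene alone, gave 0 with or without adjustment. After adjustment the methods' t-test called no gene at all in either direction, and its lowest adjusted p over all genes was 0.0861.

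The log2 difference, visceral minus parietal throughout, had a median of 0.02 over the members and of 0.00 over all genes, and the quartiles over the members were -0.08 and 0.21. It was above 0 for 24 members and below 0 for 16. The 95% interval of the difference lay wholly within 1.5-fold in either direction for 29 of the 40 members (72.5%), against 76.8% of all genes. The remaining 11 were Tnfrsf19, Tnfrsf1b, Tnfrsf12a, Cd40, Tnfsf13b, Tnfsf10, Tnfrsf17, Ltb, Lta, Tnfrsf25 and Tnfrsf11b. Among the members above the probe background, described below, the interval lay within 1.5-fold for 19 of 29 (65.5%). The arrays of the tissues did not overlap for 24 members (60%), which is close to the 56.3% found over all genes.

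**Figure D1:**
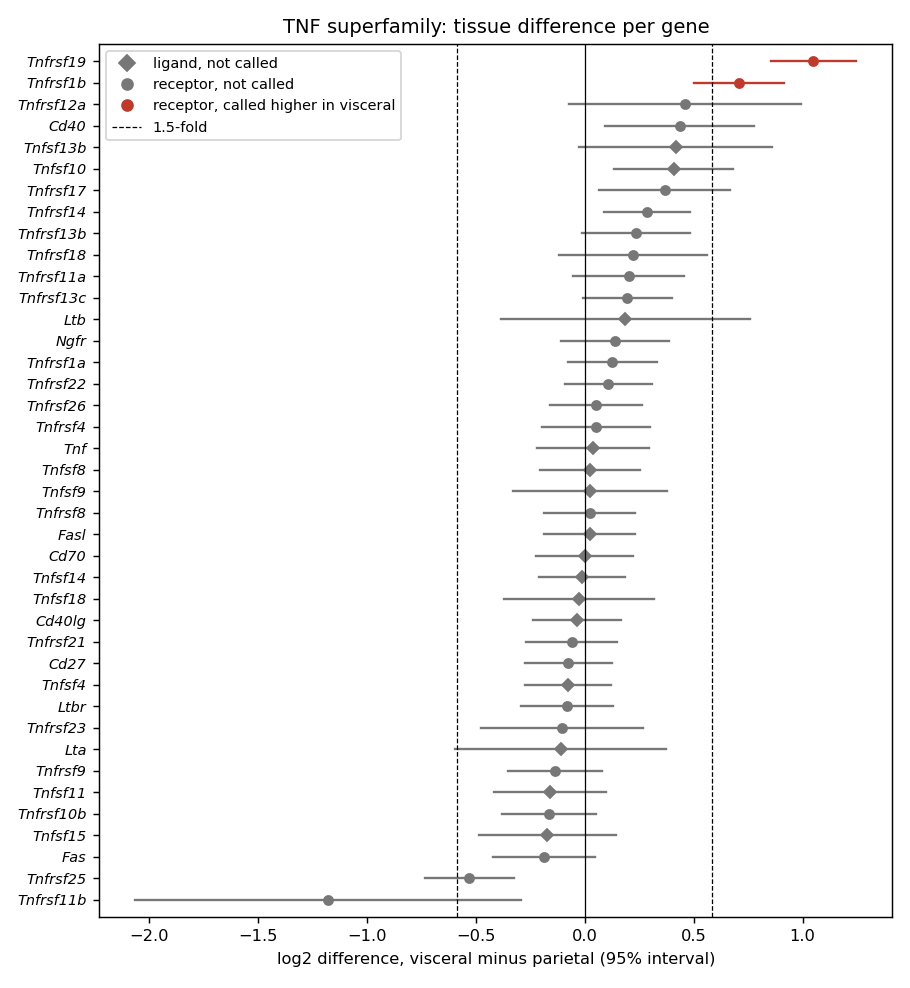
Visceral minus parietal log2 signal with its 95% interval from limma (x axis) for the 40 members (y axis, ordered by difference). Diamonds are ligands and circles receptors, red marks the 2 called genes and dashed lines stand at 1.5-fold; Tnfrsf19 (1.05) and Tnfrsf1b (0.71) lie to the right, and Tnfrsf11b (-1.18) has the widest interval.

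Tnfrsf19 encodes TROY, a receptor expressed in embryonic epithelia and in the nervous system that can activate JNK and NF-kB. Its log2 signal was 8.73 and 8.72 on the visceral arrays and 7.69 and 7.66 on the parietal arrays. Each tissue's arrays lay within 0.03 of each other and the tissues were far apart. Visceral mesothelium had a mean of 8.73 ± 0.01 (SD, n = 2) and parietal mesothelium one of 7.68 ± 0.02 (SD, n = 2). They thus differed by 1.05 with a standard error of 0.08, or 2.07-fold, at an adjusted p of 0.000889 from limma. The difference ran from 1.04 to 1.06 on leaving out each array in turn, with the call kept each time.

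Tnfrsf1b encodes TNFR2, the receptor for TNF that lacks a death domain and is found mainly on leukocytes and endothelium. Its log2 signal was 10.30 and 10.38 on the visceral arrays against 9.65 and 9.62 on the parietal arrays. Both visceral arrays were above both parietal ones. The mean was 10.34 ± 0.06 (SD, n = 2) against 9.63 ± 0.02 (SD, n = 2), which is 1.63-fold, or 0.71 with a standard error of 0.08 and an adjusted p of 0.00415 from limma. On leaving out each array it was 0.67 to 0.75 and called each time. Macrophage and dendritic cell markers moved in the same direction, 16 of 21 having higher calls and none a lower call. Their summed linear signal was 36007 and 39590 on the visceral arrays and 8047 and 9370 on the parietal arrays. The part of such cells in the Tnfrsf1b difference was not tested. In bulk RNA, fewer cells of a type and less RNA per cell cannot be told apart.

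The sequences upstream of both called receptors are shown because these are the members with a call. Each is the stretch of 250 bases before a transcription start, 5′ to 3′ on the gene's strand, from RefSeq on GRCm38.p6. Capitals mark GC boxes, GGGCGG on either strand, where overlapping boxes run together. Tnfrsf1b has 1 annotated window, on the minus strand at chr4:145246871-145247120, and Tnfrsf19 has a window at each of 2 starts, both on the minus strand, at chr14:61046856-61047105 for the upstream start and at chr14:61037988-61038237 for the downstream start.
Tnfrsf1b: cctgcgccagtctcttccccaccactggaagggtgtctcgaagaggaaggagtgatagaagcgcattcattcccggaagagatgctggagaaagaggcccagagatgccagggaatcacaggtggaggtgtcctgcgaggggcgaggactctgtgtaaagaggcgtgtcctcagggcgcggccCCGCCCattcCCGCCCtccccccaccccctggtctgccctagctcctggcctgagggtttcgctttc
Tnfrsf19 upstream start: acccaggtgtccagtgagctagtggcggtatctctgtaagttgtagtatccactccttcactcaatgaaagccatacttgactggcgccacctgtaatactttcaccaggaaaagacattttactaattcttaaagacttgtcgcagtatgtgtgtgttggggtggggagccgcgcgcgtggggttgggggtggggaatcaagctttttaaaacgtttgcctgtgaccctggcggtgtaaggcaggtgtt
Tnfrsf19 downstream start: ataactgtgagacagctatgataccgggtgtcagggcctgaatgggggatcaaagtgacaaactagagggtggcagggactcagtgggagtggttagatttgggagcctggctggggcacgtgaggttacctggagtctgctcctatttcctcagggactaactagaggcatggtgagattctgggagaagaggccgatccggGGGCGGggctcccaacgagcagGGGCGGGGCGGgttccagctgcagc

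The Tnfrsf1b window holds 2 GC boxes, 12 CpG and 62.8% G and C. At Tnfrsf19 the upstream window holds no GC box and 9 CpG, and the downstream window 3 GC boxes and 8 CpG. None of the 3 windows holds a TATA box, a match to the NF-kB consensus or a CCAAT box on either strand. For the first of these the letters searched were TATAAA. Over 32851 windows of this length in the same table, 32.7% hold a GC box, 12.4% a TATA box, 33.8% a CCAAT box and 3.9% an NF-kB match, with a median of 6 CpG. Of the 40 members, 31 have at least 1 window there, and an NF-kB match was found in windows of Ltb, Tnfrsf8 and Tnfrsf9, which differed by 0.19, 0.02 and -0.14 between the tissues and were not called. Such matches describe letters and are not evidence of a bound site.

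On the parietal side stood 2 receptors that were not called, each missing a different criterion. Tnfrsf25 encodes DR3, the death domain receptor of the ligand Tnfsf15, and is known for costimulating lymphocytes. Its log2 signal was 8.51 and 8.59 on the visceral arrays and 9.09 and 9.07 on the parietal arrays, without overlap. The difference was -0.53 (standard error 0.08, 95% interval -0.73 to -0.32), which passed the adjusted p (0.0114 from limma) but at 1.44-fold missed the minimum fold. On adjusted p alone, without a minimum fold, 3 members passed (Tnfrsf19, Tnfrsf1b and Tnfrsf25), against 14.2% of all genes. Without visceral replicate 1 Tnfrsf25 no longer passed the adjusted p (0.0513). Tnfsf15 itself differed by -0.17 (95% interval -0.49 to 0.14).

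Tnfrsf11b encodes osteoprotegerin, a secreted decoy that binds the ligands Tnfsf11 and Tnfsf10. Its log2 signal was 9.95 and 9.01 on the visceral arrays and 11.00 and 10.32 on the parietal arrays. The tissues did not overlap, but arrays of the same tissue lay far apart, by 0.94 in visceral and 0.69 in parietal mesothelium, against a median gap of 0.08 over the members. At -1.18 with a standard error of 0.36, or 2.26-fold, this was the widest difference among the 40 members, and it was not called (adjusted p = 0.0936 from limma). Without visceral replicate 1 it was -1.65 and without parietal replicate 2 it was -1.52, and it was then called (adjusted p = 0.0371 and 0.023 from limma). Without visceral replicate 2 it was -0.71 and without parietal replicate 1 it was -0.83, and neither value was called. The methods describe both tissues as taken from the same mice without saying which arrays share an animal. With the replicate number as a block the difference was called (adjusted p = 0.0023 from limma). All 17 contractile and metabolic genes of skeletal muscle were called higher in parietal mesothelium, with a summed linear signal of 77387 and 98870 on the parietal and 2148 and 2230 on the visceral arrays. Of 14 mesothelial markers 8 were called higher there too, while 1, Wt1 (0.84), was called higher in visceral mesothelium. The part of muscle and mesothelial cells in the values of Tnfrsf25 and Tnfrsf11b was not tested.

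**Figure D2:**
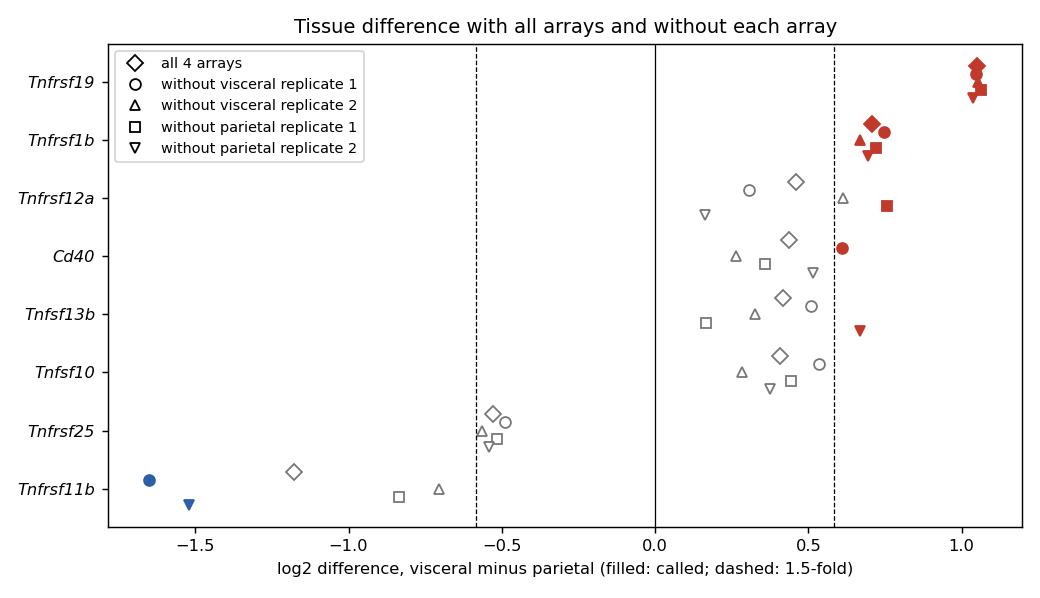
Visceral minus parietal log2 signal (x axis) for 8 members (y axis) with all 4 arrays (diamonds) and without each array in turn (other symbols). Filled symbols were called, in red as higher in visceral and in blue as higher in parietal mesothelium, and dashed lines stand at 1.5-fold; the 2 genes called with all arrays stay filled throughout, while Tnfrsf11b moves from -0.71 to -1.65.

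The ligands of TNFR2 were not called. Tnf, the founding inflammatory cytokine of the family, had log2 signals of 6.22 and 6.30 on the visceral and 6.12 and 6.32 on the parietal arrays, which overlap, and a difference of 0.04 (95% interval -0.22 to 0.29). Lta, lymphotoxin alpha, differed by -0.11 (95% interval -0.60 to 0.38). The signals of Tnf and Lta lay within the range of olfactory and vomeronasal receptor genes, which serve here as genes that neither tissue is expected to express. The 95th percentile of the mean signal of those 1194 genes was 6.66, and a signal below it cannot be told from probe background. Tnfrsf1a, the TNF receptor with a death domain that most cells carry, had log2 signals of 10.58 on both visceral arrays and 10.49 and 10.42 on the parietal arrays. Its arrays did not overlap, yet the difference was only 0.13 (95% interval -0.08 to 0.33) and was not called. Whether the difference of Tnfrsf1b exceeded that of Tnfrsf1a was not tested.

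Members of the lymphoid organ axis were not called. Ltb, lymphotoxin beta, which pairs with Lta on the surface of lymphoid cells, had log2 signals of 6.69 and 7.42 on the visceral arrays and 6.90 and 6.84 on the parietal arrays. The visceral arrays lay on either side of the parietal ones, and the interval of the difference of 0.19 ran from -0.39 to 0.76. Its stromal receptor Ltbr differed by -0.08 (95% interval -0.29 to 0.13). Tnfsf14, the ligand LIGHT, differed by -0.01 (95% interval -0.21 to 0.19), and its second receptor Tnfrsf14, or HVEM, by 0.28 (95% interval 0.09 to 0.48, adjusted p = 0.0758 from limma). Tnfsf11, or RANKL, differed by -0.16 (95% interval -0.41 to 0.10) and its receptor Tnfrsf11a, or RANK, by 0.20 (95% interval -0.05 to 0.46). The intervals of Ltbr, Tnfsf14, Tnfrsf14, Tnfsf11 and Tnfrsf11a excluded a difference in signal of 1.5-fold, and that of Ltb did not. Tnfsf14, with means of 6.78 in visceral and 6.79 in parietal mesothelium, lay just above the probe background. Its interval therefore says little about the transcript.

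None of the 6 measured members that sustain or license B cells was called. Their differences were above 0 for 5 and below 0 for 1, Cd40lg, with a median of 0.30 against 0.00 over all genes. The arrays did not overlap for those 5, against 56.3% of all genes. Tnfsf13b encodes BAFF, the survival factor of mature B cells. Its log2 signal was 9.34 and 9.52 on the visceral and 8.76 and 9.26 on the parietal arrays, a difference of 0.42 (95% interval -0.02 to 0.86, adjusted p = 0.206 from limma). The lower parietal array decides much of that value: it was 0.16 without parietal replicate 1 and 0.67, then called, without parietal replicate 2 (adjusted p = 0.0234 from limma).

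Cd40, the receptor through which T cells license B cells and dendritic cells, had log2 signals of 7.68 and 8.03 on the visceral and 7.34 and 7.50 on the parietal arrays. Its difference of 0.44 (95% interval 0.09 to 0.78) was not called (adjusted p = 0.105 from limma). Without visceral replicate 1 it was 0.61 and was called (adjusted p = 0.0452 from limma), and without visceral replicate 2 it was 0.26 and was not. The receptors of BAFF differed by 0.20 for Tnfrsf13c (BAFF-R), 0.24 for Tnfrsf13b (TACI) and 0.37 for Tnfrsf17 (BCMA, the receptor of plasma cells), with adjusted p values of 0.197, 0.205 and 0.115 from limma. The mean parietal signal of Tnfrsf17, 6.55, lay within the probe background. Cd40lg, the ligand of activated T cells, was within the probe background and differed by -0.03. Beside these values, 4 of 11 B cell markers had a higher call in visceral mesothelium and none a lower one, with a summed linear signal of 2122 and 2796 on the visceral and 1063 and 1180 on the parietal arrays. Of those markers Cd22, Cr2, Fcer2a and Fcrla stayed within the probe background in both tissues. The part of B cells in the differences of these members was not tested.

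None of the 10 members grouped as costimulators of lymphocytes, a group without Tnfrsf25, was called. The intervals of all 10 lay within 1.5-fold, the differences ran from -0.14 for Tnfrsf9 (4-1BB) to 0.22 for Tnfrsf18 (GITR), and the median was 0.01. All 5 ligands of this group (Tnfsf4, Tnfsf8, Tnfsf9, Tnfsf18 and Cd70) and the receptor Cd27 were within the probe background in both tissues, so that their differences say little about the transcripts. The remaining receptors, Tnfrsf4, Tnfrsf8, Tnfrsf9 and Tnfrsf18, were above it, Tnfrsf8 only narrowly (means of 6.81 in visceral and 6.79 in parietal mesothelium). The 12 markers of T, NK and innate lymphoid cells held 2 with a call, Cd3g and Il7r, both towards visceral mesothelium. Of the 12, 6 lay within the probe background by their means in both tissues, Cd3g and Il7r among them.

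None of the death domain receptors was called. Fas, which triggers apoptosis, had log2 signals of 8.46 and 8.61 on the visceral and 8.69 and 8.76 on the parietal arrays, a difference of -0.19 (95% interval -0.42 to 0.05), while its ligand Fasl was within the probe background. Tnfrsf10b, the TRAIL receptor of the mouse, differed by -0.16 (95% interval -0.38 to 0.05) and Tnfrsf21, or DR6, by -0.06 (95% interval -0.27 to 0.15). Ngfr, the neurotrophin receptor of nerves and Schwann cells, differed by 0.14 (95% interval -0.11 to 0.39), while no Schwann and nerve marker of 10 was called and their median was -0.21. For all these receptors the interval excluded a difference of 1.5-fold, and Tnfrsf25 was the exception in this class.

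Tnfsf10 encodes TRAIL, the apoptosis-inducing ligand of Tnfrsf10b. Its log2 signal was 6.70 and 6.95 on the visceral arrays and 6.45 and 6.39 on the parietal arrays. The tissues did not overlap, the parietal signals lay within the probe background, and the difference of 0.41 (95% interval 0.14 to 0.68) was not called (adjusted p = 0.0672 from limma). Among its decoys, Tnfrsf22 differed by 0.11 and Tnfrsf23 by -0.10, and the related orphan receptor Tnfrsf26, at 0.05, was within the probe background. These 3 genes lie next to each other and have similar sequences, so that their probes may not tell them apart. Tnfrsf12a, or Fn14, the wound-induced receptor of the ligand Tnfsf12, had log2 signals of 9.99 and 9.68 on the visceral and 9.67 and 9.08 on the parietal arrays. The lower visceral array barely exceeded the higher parietal one, and the difference of 0.46 had an interval of -0.07 to 0.99. It was 0.76 and called without parietal replicate 1 (adjusted p = 0.0225 from limma) and 0.16 without parietal replicate 2.

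**Figure D3:**
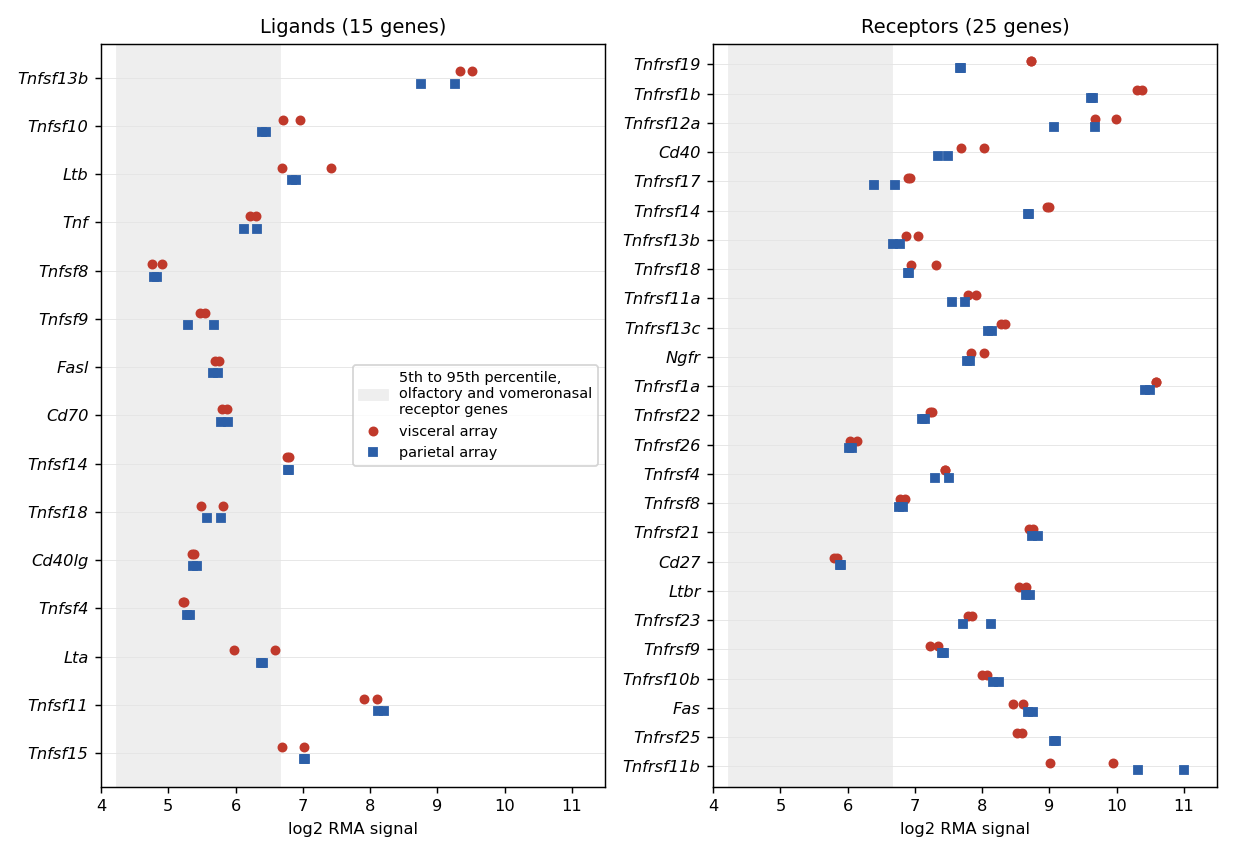
Log2 RMA signal (x axis) of the 15 ligands and 25 receptors (y axis, ordered by difference), with 1 point per array (visceral arrays as circles, parietal arrays as squares). The grey band spans the 5th to the 95th percentile of olfactory and vomeronasal receptor genes (4.23 to 6.66); 9 ligands and 2 receptors have both tissue means below its upper edge.

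Most ligands and few receptors lay within the probe background. Of the 15 ligands, 9 had both tissue means below the 95th percentile of the olfactory and vomeronasal receptor genes, whereas 2 of the 25 receptors did, Cd27 and Tnfrsf26. Over all genes 29% did. The 6 ligands above it were Tnfsf13b, Tnfsf10, Ltb, Tnfsf14, Tnfsf11 and Tnfsf15, with differences from -0.17 to 0.42. Of 24 pairs of a ligand and its receptor with both measured, 13 had both genes above the background. The receptor was called in 2 pairs, those of Tnfrsf1b with Tnf and with Lta, and the ligand in none.

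Several members lie close together in the genome. With at most 3 protein-coding genes between them in RefSeq order, 21 members fell into 8 groups, and 1 of those 21 was called, Tnfrsf1b, against 9.6% of all genes. Many of the 21 lay within the probe background, among them Tnf, Lta, Cd27, Tnfrsf26 and all members of the group of Tnfsf4, Tnfsf18 and Fasl. Its neighbour Tnfrsf8, or CD30, differed by 0.02 (95% interval -0.19 to 0.23). Ltb, Tnf and Lta, which are neighbours in the major histocompatibility complex, differed by 0.19, 0.04 and -0.11, and Cd27, Ltbr and Tnfrsf1a by -0.07, -0.08 and 0.13. Tnfrsf19 has no member close by.

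Of 5 genes related to the family by the ectodysplasin branch or by sequence but not by symbol, Eda2r was called. Eda2r, the receptor of an ectodysplasin isoform and a target of p53, had log2 signals of 8.23 and 8.67 on the visceral and 7.56 and 7.40 on the parietal arrays, which differ by 0.97 with a standard error of 0.16 and an adjusted p of 0.0133 from limma. The ligand Eda differed by 0.03, Edar by 0.03, its adaptor Edaradd by 0.22 and Relt by -0.19, and these were not called.

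Among 39 measured genes that carry the signal inside the cell, calls went to 4 in the visceral and to 1 in the parietal direction, a share of 12.8% against 9.6% over all genes, with a median difference of 0.13. Those higher in visceral mesothelium were the adaptors Traf5 (1.07, adjusted p = 0.00872 from limma) and Traf1 (0.90), the initiator caspase Casp8 (0.71) and the IkB kinase subunit Ikbkb (0.67). Traf1 was within the probe background in both tissues by its means. Map3k5, the stress kinase ASK1, was higher in parietal mesothelium (-0.80, adjusted p = 0.00764 from limma). Nfkbie, an inhibitor of NF-kB, differed by 0.56 and passed the adjusted p (0.0115 from limma) but at 1.48-fold missed the minimum fold. Tnfaip3, the deubiquitinating enzyme A20, differed by 0.01, the inhibitor Nfkbia by -0.08, the ubiquitin ligase Birc3 by 0.27 and the NF-kB subunit Relb by -0.13, and none of these was called.

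Genes that TNF is known to induce went both ways, and 22.2% of the 27 measured were called, against 9.6% over all genes. Of these, 3 were called higher in visceral mesothelium, the adhesion molecule Vcam1 (0.92), the protease Mmp9 (0.72) and Tnfaip2 (0.67), and 3 in parietal mesothelium, the chemokine Cxcl10 (-1.19), the adhesion molecule Icam1 (-0.92) and the superoxide dismutase Sod2 (-0.62). The median was 0.03. Of 6 measured genes known as targets of the lymphotoxin receptor, 50% were called. The chemokines Cxcl13 (4.35) and Cxcl12 (0.97) were called higher in visceral and the sulfotransferase Chst4 (-2.78) in parietal mesothelium. The remaining 3 were not called. Ccl19 (0.58) passed the adjusted p (0.00901 from limma) but narrowly missed the minimum fold. Glycam1 (-0.16) and Madcam1 (-0.14) were within the probe background in both tissues.

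**Figure D4:**
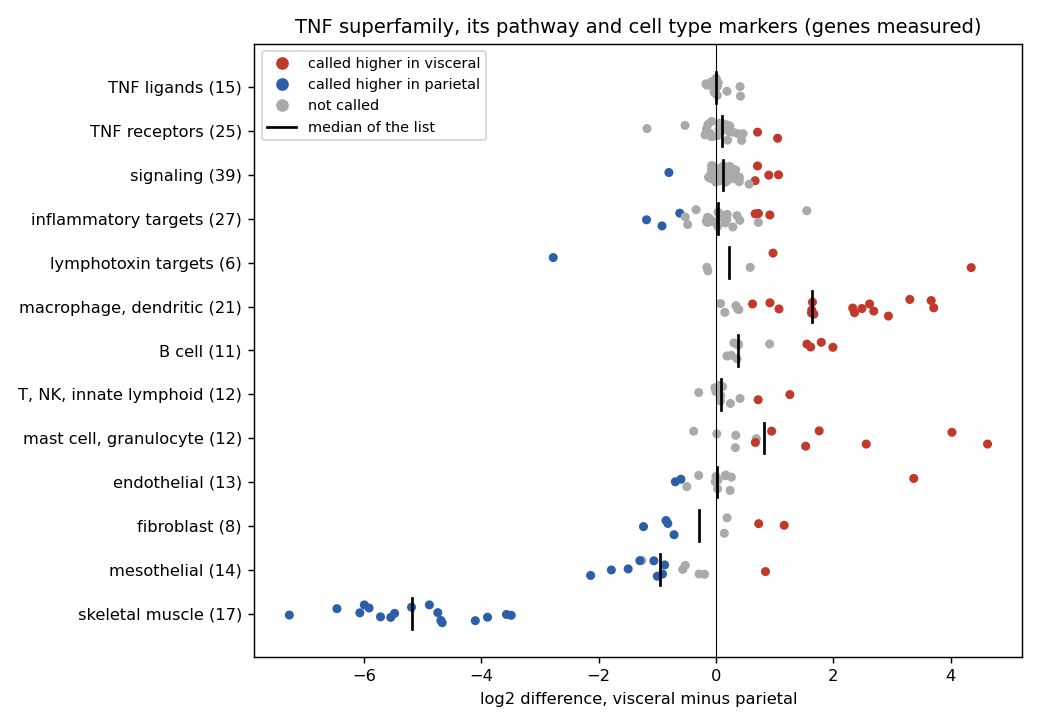
Visceral minus parietal log2 signal (x axis) for the ligands, the receptors, 3 pathway lists and 8 cell type lists (y axis, number of measured genes in brackets). Each point is 1 gene, red where called higher in visceral, blue where called the other way and grey where uncalled, and black bars are medians; the ligands lie between -0.17 and 0.42, while the macrophage and dendritic cell list has a median of 1.64 and that of skeletal muscle of -5.19.

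Several lists of other cell types held calls. Besides the lists given above, calls went to 7 of 12 mast cell and granulocyte markers, each towards visceral mesothelium, and 2 of 7 satellite cell markers were called higher in parietal mesothelium and none in visceral mesothelium. Of 8 smooth muscle markers 4 were higher in visceral mesothelium and 1, Des (-1.49), in parietal mesothelium. Des is also a gene of skeletal muscle. For fibroblasts calls went both ways, with 2 of 8 markers higher in visceral and 4 in parietal mesothelium. Of 13 endothelial markers 1, Lyve1 (3.37), which macrophages can also carry, was higher in visceral mesothelium. Cdh5 (-0.60) and Esam (-0.69) were the 2 higher in parietal mesothelium. Of 8 adipocyte markers 1 was higher in parietal mesothelium, and of 8 genes of lymphoid stroma 1 was higher in visceral and 2 in parietal mesothelium. Of the mesothelial markers 1, Wt1, was called higher in visceral mesothelium, and all 14 were above the probe background. How far such cells set the values of the members was not tested.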

How the data were processed

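Each tissue was represented by 2 arrays of the type Affymetrix Mouse Gene 1.0 ST, 4 in all. The authors produced the deposited log2 signals from the scanned arrays by RMA (background correction, quantile normalization and summary per probe set) in Partek 6.6, and the array annotation they used is not given in the sources used here. RMA compresses low signals, so that differences of dim genes are understated.

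The log2 values were used as deposited. Of 35556 rows, 21789 had 1 gene symbol in the platform annotation and stood for 19938 genes, each represented by its row of highest mean. Differences were fitted by limma 3.58.1 (R 4.3.3) on all 4 arrays without a block. A call needed an adjusted p (Benjamini-Hochberg, over all genes) under 0.05 together with a 1.5-fold difference or more. Intervals are 95% intervals from the same fit. The code was tested on simulated data. The number of arrays limits the precision, and batches were not analysed here.

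The members and lists were chosen with earlier results of these data known. Named genes are called members, their ligands or receptors, and other members by group; of the lists, called genes up to 6 in each direction, and Tnfaip3, Nfkbia, Birc3 and Relb. Uncalled members of short lists are named outside that rule. Cell type lists are given by their counts, with some of their genes named. Alternatives were the methods' t-test, other folds, variance priors, normalizations, a filter on dim genes, other choices of rows, the replicate number as a block, and leaving out single arrays. Promoter sequences and gene order come from RefSeq tables of GRCm38.p6.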

Additional observations from a re-analysis of the deposited data

How the results depend on the processing

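Tnfrsf19 and Tnfrsf1b kept their direction under all 16 alternatives, but most of these leave the size of the difference as it was. As the arrays of the tissues did not overlap for either gene, leaving out 1 array could not reverse the direction. With quantile normalization over again the differences were 1.02 for Tnfrsf19 and 0.71 for Tnfrsf1b. With each array centred on its median they were 1.03 and 0.69. With the methods' t-test as run here and adjustment, 0 members and 0 signaling genes were called in either direction, as were 0 of all genes. The adjusted p of that t-test was 0.0984 for Tnfrsf19 and 0.138 for Tnfrsf1b, at a lowest value over all genes of 0.0861. The paper reports transcripts called in both directions, which that t-test did not reproduce. With a minimum fold of 2, 1 member (Tnfrsf19) and 1 signaling gene (Traf5) were called higher in visceral and 0 signaling genes in parietal mesothelium, with 521 and 457 of all genes. With no minimum fold, Tnfrsf25 was the 1 member called higher in parietal mesothelium, and 1574 of all genes were higher in visceral mesothelium. On leaving out each array the counts were 2 to 3 members higher in visceral and 0 to 1 in parietal mesothelium, 3 to 5 and 1 signaling genes, and 955 to 1141 and 741 to 954 of all genes; a tissue left with 1 array is then assumed to vary like the other. Both tissues came from the same mice, but whether the replicate numbers pair the arrays is not stated. With the number as a replicate block 1 member, Tnfrsf11b, was called higher in parietal mesothelium (adjusted p = 0.0023 from limma), the visceral count stayed at 2, and the deviations of same-numbered arrays correlated at 0.36 over genes. Of 629 values of members under the alternatives, 619 stayed on their side of the threshold in the sense of the call, 3 lost it, 7 gained it and none reversed a call; 21 values that were not called changed sign, in 11 members whose difference was at most 0.19 in size. The filter on dim genes removed 11 members. Weak signal limits what can be said of most ligands.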
